A study of Homo sapiens with 9 samples.

Results

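Immediate early genes are transcribed within minutes of a growth signal, without new protein synthesis, and most of their mRNAs are short-lived. The 10 genes described here are the FOS family (FOS, FOSB, FOSL1, FOSL2), JUN and JUNB, the zinc finger genes EGR1, EGR2 and EGR3, and IER2. They were chosen by name from the 58174 genes of the deposited tables as serum response genes. Earlier results of these data were known when they and the gene lists below were chosen. FOS and JUN proteins pair through leucine zippers to form AP-1, which binds the sequence TGANTCA in promoters and enhancers. FOS proteins need a JUN partner, whereas JUN proteins also pair with each other. Serum response factor (SRF) binds the CArG box in many of these promoters together with ternary complex factors (ELK1, ELK3, ELK4), which MAP kinases phosphorylate. IGF2BP1 is an oncofetal RNA-binding protein that shields its target mRNAs from degradation.

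All libraries were made from ES-2, an established line derived from an ovarian carcinoma and grown in DMEM with 10% FBS. Serum was thus present throughout, and the libraries hold no time course after a stimulus. Cells received control siRNAs (siC), siRNAs against IGF2BP1 (siIGF2BP1) or siRNAs against SRF (siSRF), and total RNA was taken after 72 h, with 3 libraries per group. Each gene was targeted by 1 pool of siRNAs, so that effects of a pool on other mRNAs and effects of the targeted gene cannot be told apart. The labels do not say whether the 3 libraries of a group came from separate cultures, and p-values measure only the spread between these libraries.

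IGF2BP1 mRNA was at 12.1 to 13.5 FPKM in siC, 4.02 to 4.18 in siIGF2BP1 and 13.7 to 14.6 in siSRF. SRF mRNA was at 13.6 to 16.0 FPKM in siC, 5.42 to 6.80 in siIGF2BP1 and 1.36 to 1.63 in siSRF, so that SRF mRNA also fell in siIGF2BP1 (log2 difference -1.26, limma adjusted p = 0.00111). FPKM are reads scaled by the length of the gene and by the size of the library, and the libraries held 6421764 to 9416175 reads on genes.

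Some marker genes of cell types differed between the groups, where a gene is called if its limma adjusted p is at most 0.01. The 7 epithelial markers summed to 149 to 161 FPKM in siC, 192 to 220 in siIGF2BP1 and 217 to 222 in siSRF. KRT7 was at 101, 152 and 127 FPKM and was called higher in both depleted groups, KRT8 was at 8.81, 12.9 and 10.1 and was called higher in siIGF2BP1, and KRT18 was at 43.4, 41.8 and 81.7 and was called higher in siSRF. CDH1, EPCAM and KRT19 were at 0 in all siC libraries and at most at 0.259 FPKM in the others. Of the Müllerian markers, PAX8 was at 0.155, 0.241 and 0.0746 FPKM and was not called. The 3 mesenchymal markers moved in different directions. VIM was at 1055, 883 and 853 FPKM and was called lower in siSRF, FN1 was at 8.25, 4.70 and 3.15 and was called lower in both, and CDH2 was at 25.4, 40.1 and 29.8 and was called higher in siIGF2BP1. The leukocyte markers PTPRC and CD3E were at 0 in all 9 libraries, whereas CD14 was at 0 to 0.161 FPKM in siC, 0.188 to 0.945 in siIGF2BP1 and 0 to 0.175 in siSRF and was not called where tested. The 3 endothelial markers summed to 8.38 to 11.0 FPKM in siC, 14.5 to 16.4 in siIGF2BP1 and 7.71 to 8.49 in siSRF, nearly all of it CDH5, which was called higher in siIGF2BP1. The part of these shifts in the results below was not tested, and fewer cells of a type and less RNA per cell cannot be told apart in bulk RNA.

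The 10 genes differed widely in abundance in siC. FOSL1, which encodes FRA-1, was the most abundant at 158 FPKM ± 9.49 (SD, n = 3) and ranked 190 among 19799 protein-coding genes. JUN followed at 45.0 FPKM ± 3.21 (rank 796) and FOSL2, which encodes FRA-2, at 15.1 FPKM ± 0.385 (rank 2750). IER2 at 9.93 FPKM ± 0.767 and JUNB at 9.30 FPKM ± 0.296 came next, and their ranges overlapped. Such comparisons between genes depend on the deposited lengths, 3072 bases for IER2 and 1820 for JUNB. Their main annotated transcripts have 2110 and 1830 bases. The classical serum-induced genes were low in these cells. EGR1 was at 0.941 FPKM ± 0.0263 and FOS at 0.685 FPKM ± 0.350, again with overlapping ranges, and FOSB at 0.175 FPKM ± 0.0328 (SD, n = 3 each). EGR3 and EGR2 were represented by 5 and 3 reads over the 3 siC libraries. FOSL1, JUN and FOSL2 kept the first 3 ranks in every group without overlap of their ranges.

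By the GENCODE annotation on GRCh38, FOSL1 (ENSG00000175592) lies on the minus strand at chr11:65892049-65900573 and FOSL2 (ENSG00000075426) on the plus strand at chr2:28392448-28417317, with 4 exons each in the main transcript. FOS and FOSB share this layout of 4 exons. JUN (ENSG00000177606, minus strand, chr1:58776845-58784048) and JUNB (ENSG00000171223, plus strand, chr19:12791486-12793315) are single-exon genes. EGR1 (ENSG00000120738, plus strand, chr5:138465479-138469303) and IER2 (ENSG00000160888, plus strand, chr19:13150411-13154911) have 2 exons.

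**Figure D1:**
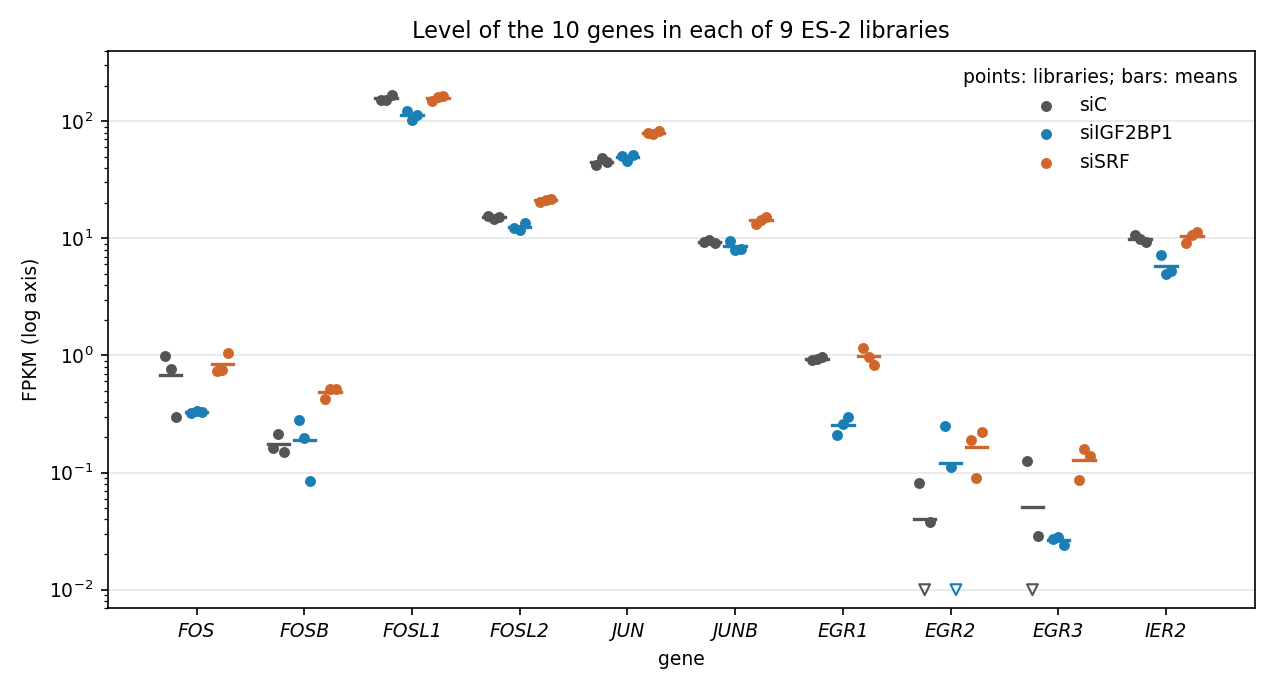
FPKM of the 10 genes on a log axis in each library (points) with the mean of each group (bars); open triangles at 0.01 mark libraries with no read. FOSL1 is highest in every library. The siIGF2BP1 libraries are lowest for EGR1, IER2, FOSL1 and FOSL2, and the siSRF libraries are highest for JUN, JUNB, FOSL2 and FOSB.

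Promoter sequences (RefSeq, GRCh38.p14, from 250 bases before to 50 bases after the start) were at hand for 8 of the 10 genes, all but FOSL1 and EGR3. They were searched on both strands for 7 motifs, and so were all 35116 promoters of the same length. The CArG box was found in 1.29% of all promoters, the AP-1 site TGANTCA in 7.71% and the related cyclic AMP response element TGACGTCA in 1.85%. The TATA box TATAAA was found in 11.5%, the ETS core CCGGAA in 17.2%, the GC box GGGCGG in 45.0% and the EGR site GCGGGGGCG in 5.07%. The CArG box, TGANTCA and the cyclic AMP response element read the same on both strands, and the GC box and the EGR site can overlap. The following 4 are shown because EGR1 holds CArG boxes and JUN, JUNB and FOSL2 are the members whose mRNA rose upon SRF depletion. They lie at chr5:138465229-138465528 (EGR1, plus strand), chr1:58783998-58784297 (JUN, minus strand), chr19:12791236-12791535 (JUNB, plus strand) and chr2:28392608-28392907 (FOSL2, plus strand). Capitals mark matches to any of the 7 motifs.
EGR1: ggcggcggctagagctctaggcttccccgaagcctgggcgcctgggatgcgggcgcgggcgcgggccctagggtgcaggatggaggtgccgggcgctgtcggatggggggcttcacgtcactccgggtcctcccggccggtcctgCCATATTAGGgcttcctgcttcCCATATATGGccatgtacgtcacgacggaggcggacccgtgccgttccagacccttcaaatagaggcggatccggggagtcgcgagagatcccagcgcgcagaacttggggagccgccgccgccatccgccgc
JUN: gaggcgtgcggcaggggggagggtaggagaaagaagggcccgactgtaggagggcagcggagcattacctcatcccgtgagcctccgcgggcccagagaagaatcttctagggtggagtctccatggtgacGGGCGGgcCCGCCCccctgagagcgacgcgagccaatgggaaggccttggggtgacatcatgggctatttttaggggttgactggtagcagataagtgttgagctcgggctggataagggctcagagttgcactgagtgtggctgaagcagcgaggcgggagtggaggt
JUNB: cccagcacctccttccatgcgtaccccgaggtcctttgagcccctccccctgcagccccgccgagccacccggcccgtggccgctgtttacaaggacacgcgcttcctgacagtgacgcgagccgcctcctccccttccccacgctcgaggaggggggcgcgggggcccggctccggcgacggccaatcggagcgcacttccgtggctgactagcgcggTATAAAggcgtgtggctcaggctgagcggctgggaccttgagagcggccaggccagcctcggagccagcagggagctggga
FOSL2: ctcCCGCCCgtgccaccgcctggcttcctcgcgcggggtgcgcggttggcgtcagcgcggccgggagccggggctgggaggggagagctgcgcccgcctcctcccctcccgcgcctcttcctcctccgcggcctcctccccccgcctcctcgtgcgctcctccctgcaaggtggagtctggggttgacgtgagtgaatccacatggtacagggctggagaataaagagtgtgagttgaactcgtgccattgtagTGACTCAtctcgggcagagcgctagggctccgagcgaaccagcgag

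The capitals in the EGR1 promoter are 2 CArG boxes, which begin 105 and 83 bases before the start. EGR2 has 3 listed starts, and the promoter of 1 of them holds a CArG box 71 bases before the start. In the JUN promoter the capitals are GGGCGG on either strand, 119 and 111 bases before the start. The JUNB promoter holds TATAAA 31 bases before the start, and the FOSL2 promoter holds GGGCGG near its upstream end and TGANTCA 4 bases after the start. TATAAA was also found in FOS and FOSB, and CCGGAA, the core that ETS factors such as the ELK proteins bind, in FOSB and IER2. No CArG box was found within this window of FOS, FOSB, FOSL2, JUN, JUNB or IER2, which says only that the letters are not in these 300 bases. The cyclic AMP response element and the EGR site were found in none of the 8 genes.

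Upon IGF2BP1 depletion, FOSL1 was the one member that passed the test, and it fell. A gene was called where limma-trend gave an adjusted p of at most 0.01 (Benjamini-Hochberg over all genes tested) on log2(FPKM + 0.1), which understates the change of low genes. With 8 of the 10 members above the filter of a mean of 0.1 FPKM, 1 was called lower, against 3.57% of 22292 genes tested. By limma-trend 0 were called higher, against 3.55% of all genes, with 0 higher at an unadjusted p under 0.05 and 0 by limma-voom. Of all genes, limma-voom called 1914 of 22292 higher. The median log2 difference of the 8 members was -0.39, and that of all genes tested was 0.02. At an unadjusted p under 0.05, 4 of the 8 were lower, and 29.2% of all genes had such a p in either direction.

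FOSL1 was at 153, 153 and 169 FPKM in siC and at 122, 103 and 112 in siIGF2BP1. Every siIGF2BP1 library lay below every siC library, and the mean was 71.0% of that in siC. The log2 difference was -0.50 (standard error 0.0750, limma adjusted p = 0.00774). It lost its call in each of the 6 fits that left out 1 library, with limma adjusted p between 0.0130 (without siIGF2BP1 replicate 1) and 0.0370 (without siIGF2BP1 replicate 3), while the difference stayed between -0.55 and -0.44. Over all genes these fits called 436 to 738 genes, against 1588 with all 6 libraries.

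EGR1, a zinc finger activator with a short-lived mRNA, showed the lowest ratio. It was at 0.917, 0.938 and 0.969 FPKM in siC and at 0.208, 0.262 and 0.301 in siIGF2BP1, which rest on 61 and 19 reads in all. The groups did not overlap, and the mean was 27.3% of that in siC. The log2 difference of -1.55 (95% confidence interval -2.20 to -0.91, limma adjusted p = 0.0120) missed the threshold. It passed with limma-voom on the recovered reads (adjusted p = 0.000497) and with all 9 libraries in 1 limma fit (adjusted p = 0.00206). EGR1 was called in 0 of the 6 fits that left out 1 library (limma adjusted p 0.0329 to 0.0454).

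IER2, a nuclear protein gene induced together with FOS and EGR1, was at 10.7, 9.82 and 9.23 FPKM in siC and at 7.26, 4.95 and 5.23 in siIGF2BP1. The groups did not overlap here either. Its log2 difference of -0.78 (standard error 0.154, limma adjusted p = 0.0193) missed the threshold. Without siIGF2BP1 replicate 1, the highest of its group, the log2 difference was -0.95 and passed (limma adjusted p = 0.00687). This was the 1 call among the 6 fits that left out 1 library, and the limma adjusted p of the others reached 0.0735. With limma-voom the adjusted p was 9.6e-06.

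FOSL2 was at 15.5, 14.7 and 15.1 FPKM in siC and at 12.3, 11.7 and 13.4 in siIGF2BP1, all below siC. Its log2 difference of -0.28 (limma adjusted p = 0.0355) missed the threshold, which it passed with limma-voom (adjusted p = 0.00614). FOSL2 was called in 0 of the 6 fits that left out 1 library (limma adjusted p 0.0352 to 0.103). For FOSL1, FOSL2, EGR1 and IER2 the two-sided exact permutation test gave p = 0.1, the smallest that 20 splits of 3 against 3 libraries allow. The share of all genes that reach this value was not counted.

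FOS, the founding partner of JUN in AP-1, varied widely between the siC libraries. It was at 0.982, 0.773 and 0.299 FPKM in siC and at 0.322, 0.339 and 0.328 in siIGF2BP1, so that siC replicate 3, with 7 reads against 21 and 17, lay below the depleted libraries. The log2 difference was -0.75 (95% confidence interval -1.81 to 0.31, limma adjusted p = 0.318), and without siC replicate 3 it was -1.18 (limma adjusted p = 0.0730). The remaining members tested showed overlapping groups. JUN was at 42.1, 48.4 and 44.6 FPKM in siC and at 50.1, 45.6 and 51.8 in siIGF2BP1, a log2 difference of 0.13 (95% confidence interval -0.05 to 0.30, limma adjusted p = 0.308). JUNB, which often restrains JUN within AP-1 dimers, was at 9.24, 9.62 and 9.04 FPKM in siC and at 9.53, 7.91 and 8.17 in siIGF2BP1 (log2 difference -0.13, limma adjusted p = 0.392). FOSB was at 0.164, 0.212 and 0.149 FPKM in siC and at 0.282, 0.197 and 0.0850 in siIGF2BP1, and its log2 difference of 0.01 changed sign with the pseudocount.

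Upon SRF depletion, JUN, JUNB and FOSL2 rose. With 9 of the 10 members tested, 3 were called higher, against 6.85% of 21857 genes. By limma-trend 0 were called lower, against 5.34% of all genes, with 0 lower at an unadjusted p under 0.05 and 0 by limma-voom. Of all genes, 34.7% had such an unadjusted p in either direction, and limma-voom called 2343 of 21857 lower. The median log2 difference was 0.48 for the 9 members and 0.01 for all genes tested. EGR2 passed the filter through its siSRF libraries, so it adds nothing to these figures as support.

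JUN was at 79.2, 78.1 and 82.0 FPKM in siSRF, against 42.1 to 48.4 in siC. The lowest siSRF library lay well above the highest siC library, and the mean was 177% of that in siC. JUN thus rose by 0.83 on the log2 scale (standard error 0.0588, limma adjusted p = 0.000508) and was called in all 6 fits that left out 1 library.

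JUNB was at 13.2, 14.3 and 15.2 FPKM in siSRF, all above the 9.04 to 9.62 FPKM of siC. Its log2 difference was 0.61 (standard error 0.0666, limma adjusted p = 0.00177), and without siSRF replicate 2 the limma adjusted p was 0.0127. FOSL2 was at 20.4, 21.2 and 21.7 FPKM in siSRF, again without overlap with siC. Its log2 difference was 0.48 (standard error 0.0465, limma adjusted p = 0.00124), and the call was made in all 6 fits that left out 1 library.

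FOSB was at 0.429, 0.514 and 0.513 FPKM in siSRF, against 0.149 to 0.212 in siC, from 64 and 20 reads in all. The groups did not overlap, and the mean was 277% of that in siC. The log2 difference of 1.09 (95% confidence interval 0.32 to 1.87, limma adjusted p = 0.0540) missed the threshold, which it passed with limma-voom on the recovered reads (adjusted p = 0.00375). FOSB was called in 0 of the 6 fits that left out 1 library (limma adjusted p 0.0856 to 0.140). FOSB shares its locus with ERCC1 on the other strand, which was at 14.9 FPKM in siC, 13.1 in siIGF2BP1 and 22.6 in siSRF. Whether reads were counted by strand is not given in the sources used here, and the part of ERCC1 in the FOSB values was not tested. JUNB overlaps HOOK2 in the same way, which was at 1.97, 2.09 and 1.61 FPKM in the same order.

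The most abundant member and the member with the CArG boxes printed above were not called in siSRF, and their libraries overlapped those of siC. FOSL1 was at 149, 163 and 163 FPKM in siSRF, a log2 difference of 0.00 with a 95% confidence interval of -0.15 to 0.15 (limma adjusted p = 0.998). EGR1 was at 1.16, 0.979 and 0.821 FPKM in siSRF, a log2 difference of 0.05 with an interval of -0.45 to 0.55 (limma adjusted p = 0.900). With trends along GC content and length taken out of each library, FOSL1 was at 0.17 (limma adjusted p = 0.0813), outside that interval, and EGR1 at 0.17 (limma adjusted p = 0.621).

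IER2 was at 9.22, 10.6 and 11.3 FPKM in siSRF, against 9.23 to 10.7 in siC, and the groups overlapped. The log2 difference was 0.06 (95% confidence interval -0.17 to 0.30, limma adjusted p = 0.700), and 0.30 with the same trends taken out (limma adjusted p = 0.0909). FOS was at 0.736, 0.745 and 1.05 FPKM, a log2 difference of 0.37 (interval -0.66 to 1.39, limma adjusted p = 0.592), which became -0.06 without siC replicate 3. The SRF mRNA itself was at 1.47 FPKM in these libraries, against 14.5 in siC.

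EGR2 and EGR3 were near the limit of detection. The 3 libraries of a group held 2, 0 and 1 reads of EGR2 in siC, 7, 3 and 0 in siIGF2BP1 and 5, 3 and 6 in siSRF. Pooled over a group this was 0.0394 FPKM (exact Poisson 95% interval 0.00813 to 0.115) in siC, 0.116 (0.0555 to 0.213) in siIGF2BP1 and 0.161 (0.0878 to 0.270) in siSRF. The intervals cover counting error only, and they overlap. EGR3 had 4, 0 and 1 reads in siC, 1, 1 and 1 in siIGF2BP1 and 3, 7 and 5 in siSRF, and it passed the filter in none of the comparisons. EGR2 was not called in siSRF against siC (limma adjusted p = 0.252) or in siIGF2BP1 against siSRF (limma adjusted p = 0.640), the comparisons in which it was tested. In siC replicate 2, 3 reads would have been 0.120 FPKM for EGR2 and 0.0909 for EGR3, so levels below these could not be seen there.

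**Figure D2:**
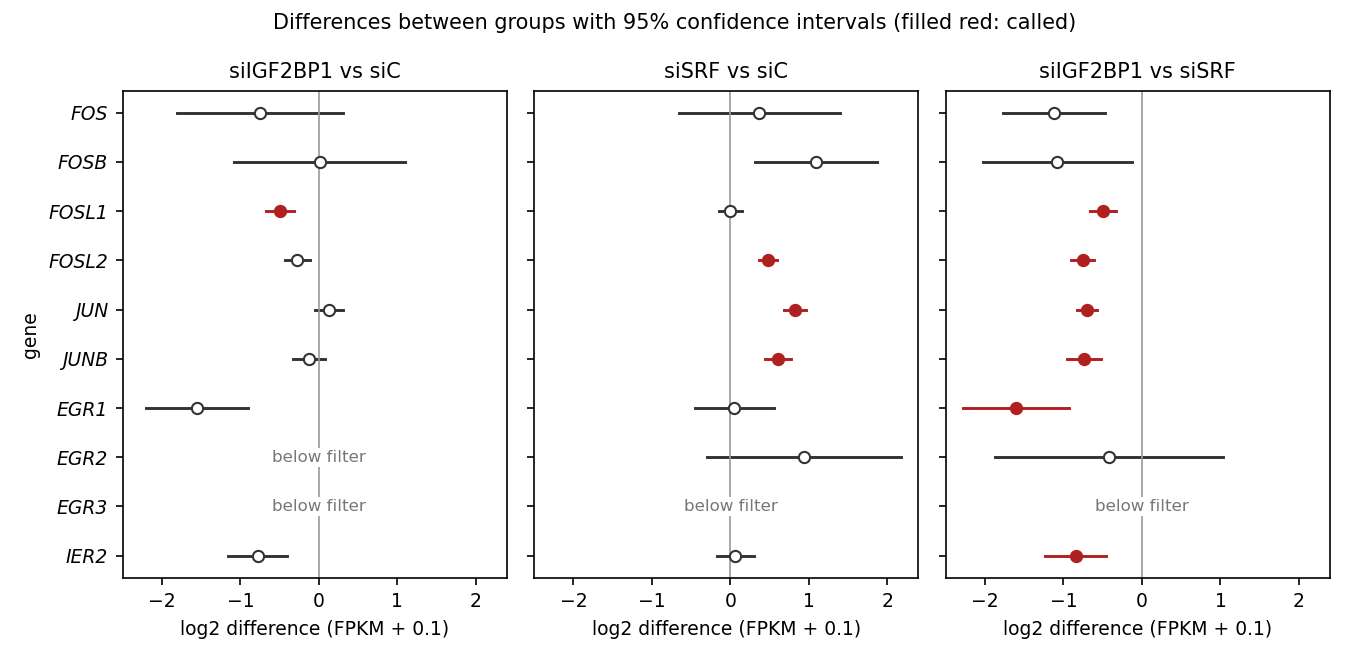
Log2 difference of each gene (points) with its 95% confidence interval from limma-trend (lines) in the 3 comparisons, on the scale of log2(FPKM + 0.1); filled red points are called at an adjusted p of at most 0.01. FOSL1 is called lower upon IGF2BP1 depletion, FOSL2, JUN and JUNB are called higher upon SRF depletion, and 6 genes are called lower in siIGF2BP1 than in siSRF.

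The depleted groups were also compared directly, which uses no siC library and tests whether they differ. In siIGF2BP1, 6 of the 9 members tested were called lower than in siSRF, against 11.2% of 22311 genes. By limma-trend 0 were called higher, against 8.82% of all genes, with 0 higher at an unadjusted p under 0.05 and 0 by limma-voom. Of all genes, 41.1% had such an unadjusted p in either direction, and limma-voom called 3282 of 22311 higher. The median log2 difference was -0.75 for the members and 0.02 for all genes tested.

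The 6 genes differed in where they stood relative to siC. FOSL1 (log2 difference -0.50, limma adjusted p = 0.00256), EGR1 (-1.60, limma adjusted p = 0.00596) and IER2 (-0.84, limma adjusted p = 0.00876) overlapped siC in siSRF and lay below it in siIGF2BP1. JUN (-0.70, limma adjusted p = 0.000245) and JUNB (-0.73, limma adjusted p = 0.00144) overlapped siC in siIGF2BP1 and lay above it in siSRF. FOSL2 (-0.75, limma adjusted p = 0.000287) lay below siC in siIGF2BP1 and above it in siSRF. In all 6 genes the siIGF2BP1 libraries lay below the siSRF libraries without overlap. The calls rest on the same libraries, so this adds no support to them. The share of all genes without overlap was not counted.

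EGR1 was at 26.0% of its siSRF level in siIGF2BP1 and IER2 at 55.9%. The calls of FOSL2, JUN and JUNB were made in all 6 fits that left out 1 library, whereas EGR1 was called in 0 of them (limma adjusted p 0.0155 to 0.0297), IER2 in 1 (0.00258 to 0.0364) and FOSL1 in 3 (0.00325 to 0.0148). The IER2 call remained without siIGF2BP1 replicate 1, and the FOSL1 call was lost without siSRF replicate 2, siSRF replicate 3 or siIGF2BP1 replicate 3. FOS (-1.12, limma adjusted p = 0.0208) and FOSB (-1.08, limma adjusted p = 0.0851) were not called, though their groups did not overlap either, and both passed with limma-voom (adjusted p = 0.00478 and 0.00252). Neither was called in any of the 6 fits that left out 1 library.

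Since FPKM are scaled by gene length, the mRNAs of a family were added. The deposited lengths exceed the main transcript more in FOS (3238 against 2104 bases) and FOSB (5553 against 3775) than in FOSL1 (1887 against 1702). The shares within a family thus depend on the lengths used. FOSL1 made up 90.8% ± 0.700 of the FOS family sum in siC, 89.6% ± 0.734 in siIGF2BP1 and 87.6% ± 0.256 in siSRF (SD, n = 3 each). FOS and FOSB together, the members with a strong activation domain, stayed below 1% in every library, with group means of 0.501%, 0.414% and 0.734%. The family sum was 174 FPKM ± 9.16 in siC, 125 ± 9.49 in siIGF2BP1 and 181 ± 8.69 in siSRF.

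For the JUN family, JUND was added, which is not among the 10 and is made without a stimulus in most cells. The sum was 64.7 FPKM ± 4.43 in siC, 66.0 ± 5.47 in siIGF2BP1 and 100.4 ± 4.21 in siSRF (SD, n = 3 each). JUN made up 69.6% of it in siC, 74.6% in siIGF2BP1 and 79.5% in siSRF, and JUND 16.0%, 12.4% and 6.29%. JUND itself was at 10.4 FPKM in siC and 6.35 in siSRF, a log2 difference of -0.72 that missed the threshold (limma adjusted p = 0.0249). The FOS family sum was 2.43 to 2.88 times the JUN family sum in siC, 1.86 to 1.93 times in siIGF2BP1 and 1.74 to 1.90 times in siSRF. The ratio was thus lower in both depleted groups than in siC, with a lower numerator in siIGF2BP1 and a higher denominator in siSRF.

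**Figure D3:**
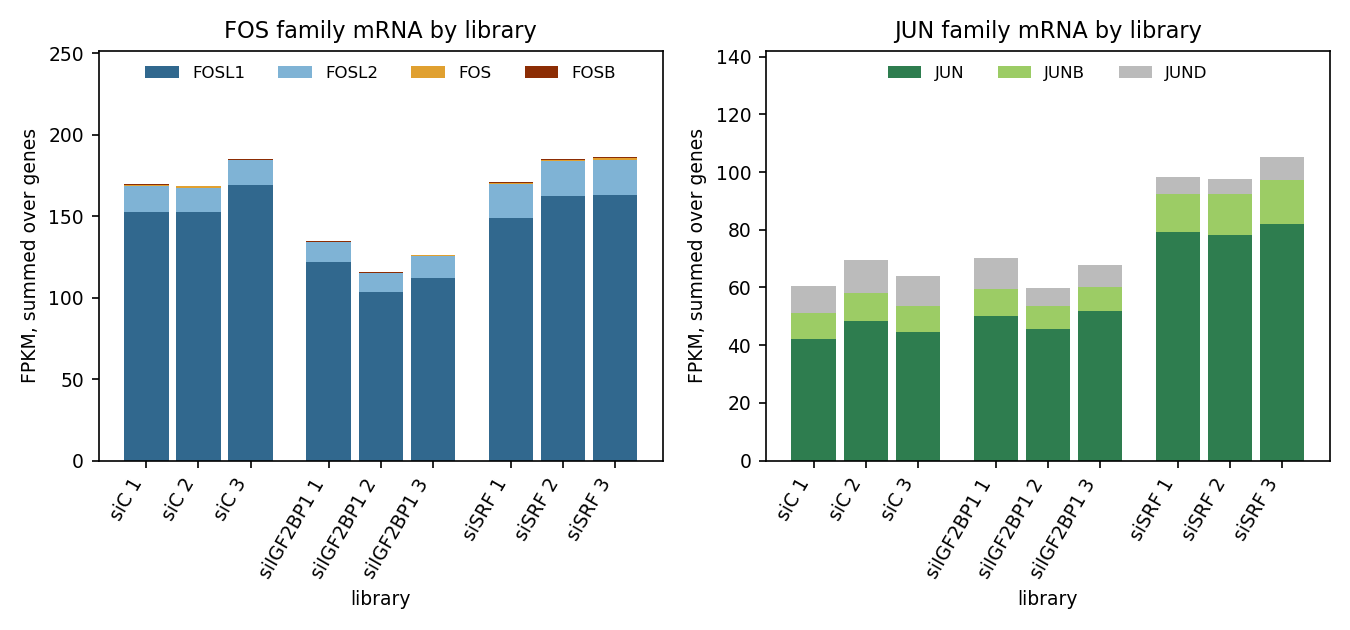
FPKM of the FOS family (left) and the JUN family (right) in each library, stacked by gene from 0. The FOS family bars, nearly all FOSL1 and FOSL2, are shortest in siIGF2BP1, and the JUN family bars are tallest in siSRF with the smallest share of JUND.

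Other genes of the pathway were described by lists. Of 38 other immediate early and early response genes, 36 were tested upon IGF2BP1 depletion, with 3 called lower, 2 called higher and a median log2 difference of -0.18. Upon SRF depletion 2 of 36 were called lower and 12 higher, with a median of 0.26. In siIGF2BP1 against siSRF 16 of 35 were called lower and 4 higher, with a median of -0.40. Over all genes tested, 3.57% were called lower and 3.55% higher upon IGF2BP1 depletion, 5.34% and 6.85% upon SRF depletion, and 11.2% and 8.82% in siIGF2BP1 against siSRF, with medians of 0.02, 0.01 and 0.02.

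DUSP1, a phosphatase that switches off MAP kinases, fell upon IGF2BP1 depletion (10.0 to 6.59 FPKM, log2 difference -0.60, limma adjusted p = 0.00508) and rose to 48.5 FPKM upon SRF depletion (2.27, limma adjusted p = 3.6e-05). HBEGF, a ligand of the EGF receptor, and GEM, a small GTPase, moved the same way. HBEGF was at 27.9 FPKM in siC, 10.1 in siIGF2BP1 and 45.3 in siSRF, and GEM at 9.84, 6.43 and 25.0, all called by limma. PLK2 and RHOB moved the other way, with PLK2 at 28.0, 56.9 and 20.2 FPKM and RHOB at 12.0, 18.3 and 7.29, again all called by limma. MYC was at 55.9, 54.9 and 72.7 FPKM and was called in siSRF (log2 difference 0.38, limma adjusted p = 0.00158) but not in siIGF2BP1 (-0.03, limma adjusted p = 0.764).

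Among the 11 AP-1 partners and related factors, 9 were tested, with 3 called lower and 0 higher upon IGF2BP1 depletion and 1 lower and 2 higher upon SRF depletion. Of all genes 3.57% were lower and 3.55% higher in the former and 5.34% and 6.85% in the latter. The medians were -0.35 and 0.13, against 0.02 and 0.01 for all genes. The small MAF genes made up these calls. MAFF was at 4.84 FPKM in siC, 1.92 in siIGF2BP1 and 11.3 in siSRF, MAFK at 8.27, 5.38 and 12.4, and MAFG at 13.7, 9.37 and 8.72. NAB2, a co-repressor that EGR1 induces and that binds EGR proteins, fell upon IGF2BP1 depletion (6.36 to 4.27 FPKM, log2 difference -0.56, limma adjusted p = 0.00551), and its homologue NAB1 rose (11.8 to 17.2 FPKM, 0.54, limma adjusted p = 0.00378). NAB2 was at 6.21 FPKM in siSRF, and EGR4 had no read in siC and siIGF2BP1.

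Of 14 MAP kinase pathway genes upstream of these promoters, 3 were called lower upon IGF2BP1 depletion, MAP2K1 and MAP2K2 among them, and EGFR was called higher. Among all genes these shares were 3.57% lower and 3.55% higher. The median of the 14 was -0.11 here and -0.11 upon SRF depletion, against 0.02 and 0.01 for all genes. Upon SRF depletion, when 5.34% of all genes were called lower and 6.85% higher, MAP2K2 and MAPK3 were called lower and MAPK8, which encodes the JUN kinase JNK1, rose from 7.50 to 11.5 FPKM (log2 difference 0.61, limma adjusted p = 0.000886). SRF was the one gene called among SRF and its 5 co-factors in either comparison with siC.

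Of 18 genes reported as AP-1 targets, 14 were tested. Upon IGF2BP1 depletion 6 were called lower and 1 higher, with a median log2 difference of -0.40, and upon SRF depletion 3 were called lower and 3 higher, with a median of 0.08. The shares of all genes were 3.57% lower and 3.55% higher, and 5.34% and 6.85%, with medians of 0.02 and 0.01. MMP1, a collagenase whose promoter holds a well-known AP-1 site, was at 3941 FPKM in siC, 1024 in siIGF2BP1 and 3406 in siSRF, and fell upon IGF2BP1 depletion (log2 difference -1.94, limma adjusted p = 0.000161). PLAUR, the urokinase receptor, was at 24.1, 13.5 and 45.3 FPKM and was called in both. CXCL8 fell to 15.3 FPKM from 54.6 in siC upon IGF2BP1 depletion, and AXL rose to 516 from 270. IL11 rose upon SRF depletion, from 0.798 to 7.81 FPKM. Upon SRF depletion HMGA1, AXL and VEGFA were called lower.

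**Figure D4:**
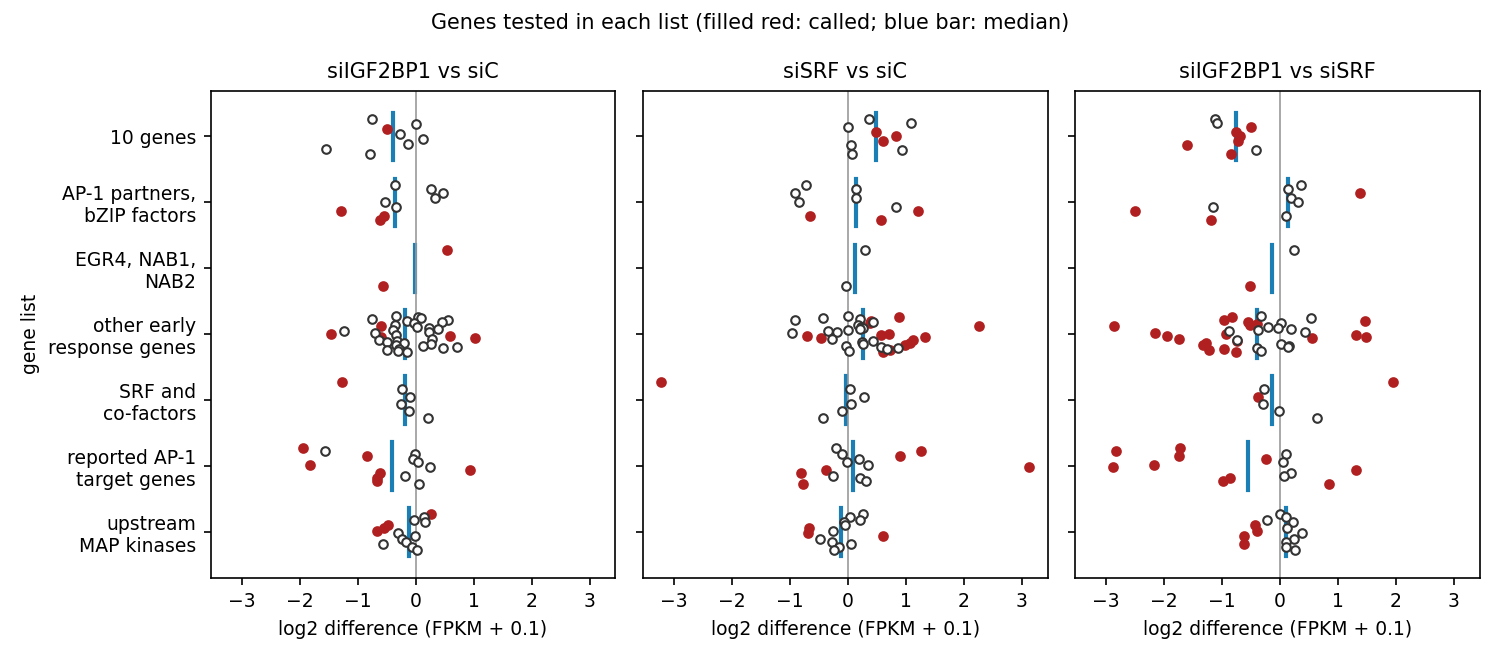
Log2 difference (scale of log2(FPKM + 0.1)) of each gene tested in the 10 genes and in 6 lists of related genes, in the 3 comparisons; filled red points are called and blue bars are medians. The early response genes called in siSRF lie mostly to the right of 0, with 12 of 14 higher, and those called in siIGF2BP1 against siSRF mostly to the left, with 16 of 20 lower.

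Genes with the most similar pattern were looked up for FOSL1, the most abundant member, and for IER2, the member of at least 1 FPKM on average with the largest difference between the depleted groups. Over the 9 libraries and among 10380 protein-coding genes of at least 1 FPKM, FOSL1 correlated most with PCBD1, C19orf24, NF2, EZR and SNRNP40 (Pearson r 0.984 to 0.989 on log2(FPKM + 0.1)). EZR, which encodes the membrane linker ezrin, was at 82.1 FPKM in siC, 54.7 in siIGF2BP1 and 81.0 in siSRF, and NF2, which encodes merlin, at 58.1, 42.4 and 58.7. The highest for IER2 were ZC3H18, SUMF1, NFKB2, PPRC1 and DCTD (r 0.968 to 0.977). NFKB2 was at 11.0 FPKM in siC, 7.25 in siIGF2BP1 and 11.8 in siSRF. The libraries fall into 3 groups, which these correlations mostly follow, and each pair of genes was measured in the same libraries.

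The mRNAs of the 10 genes were also compared by sequence content. Many early response mRNAs carry AU-rich elements with the pentamer ATTTA, which recruit decay factors. In the main transcripts (GENCODE on GRCh38), 9 of 10 carried at least 1 ATTTA in the 3′UTR, against 67.7% of 19169 protein-coding genes, and 2, FOS and FOSL2, carried TTATTTATT, against 8.45%. FOS had 5 pentamers in 806 bases and FOSL2 had 9 in 4869, while FOSL1 and EGR1 had 1 each and IER2 had 0. Per kilobase the median of the members was 1.52 and that of all genes was 1.51. The mRNAs of the members were GC-rich, at 51.0% to 64.9% against a median of 49.1%. With trends along GC content and length taken out of each library, every call and non-call of a member was the same. The log2 differences upon SRF depletion of all 9 members tested became higher, with JUNB at 0.86 and JUN at 0.96. The uncalled FOSL1, EGR1 and IER2 were at 0.17, 0.17 and 0.30. Upon IGF2BP1 depletion those of all 8 members tested became higher as well, so that the falls became smaller. FOSL1 was then at -0.41, IER2 at -0.64, EGR1 at -1.48 and FOSL2 at -0.24, and JUNB changed sign to 0.02.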

How the data were processed

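Total RNA of ES-2 cells was depleted of ribosomal RNA (RiboCop), made into libraries with a directional kit (NEBNext Ultra) and sequenced on a NextSeq 500. Per the submitters' processing notes the tools were cutadapt 1.14, HISAT2 2.1.0, SAMtools 1.5, featureCounts 1.5.3 and edgeR 3.18.1, with the build hg38; the strand setting of the counting is not given in the sources used here. The authors deposited FPKM values per library, scaled by TMM factors, with the gene length in bases as another column, in 2 tables that share the siC values. Their columns of fold changes, p-values and FDR were not used. FPKM times length gave whole reads for 100% of the values (tolerance 0.01 reads), between 6421764 and 9416175 per library.

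Groups came from the sample labels. Each comparison was fitted with limma 3.58.1 (R 4.3.3, lmFit, then eBayes with trend set) on log2 of FPKM plus 0.1, over genes whose mean reached 0.1 FPKM in its 6 libraries, with Benjamini-Hochberg adjustment over all of them and calls at 0.01. Limma-voom on the recovered reads, which called 3805, 5123 and 6912 genes in the comparisons siIGF2BP1 vs siC, siSRF vs siC and siIGF2BP1 vs siSRF, was an alternative. Others were pseudocounts of 1 and 0.01, other filters, median-ratio rescaling, robust eBayes, a replicate block, 1 fit over 9 libraries, a threshold of 0.05, removal of length and GC trends and leaving out each library. The scripts were tested on simulated data. Named were all 10 members, genes of the lists called in at least 1 comparison, markers (some genes of the lists are not reported here), the genes overlapping a member, JUND and EGR4 (chosen after their values were seen), and the 5 most similar genes for 2 members. The members and lists were chosen with earlier results of these data known. Transcript sequences came from GENCODE on GRCh38, a later annotation than the authors', matched by Ensembl ID, and promoters from RefSeq.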

Additional observations from a re-analysis of the deposited data

How the results depend on the processing

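Of the counts of called members, those called higher upon IGF2BP1 depletion, lower upon SRF depletion and higher in siIGF2BP1 than in siSRF stayed at 0 under every alternative run. The 1 member called lower upon IGF2BP1 depletion became 4 at an adjusted p of at most 0.05 and 4 with limma-voom, 3 with all 9 libraries in 1 fit, 2 with a pseudocount of 1, and 0 with all genes that have a value. Over all genes, 796 were called lower in the main fit, against 1836, 1891, 1308, 783 and 728 in these settings in the same order. With the replicate block the 1 member called lower upon IGF2BP1 depletion became 0. The 3 called higher upon SRF depletion became 1 and the 6 called lower in siIGF2BP1 than in siSRF became 2. Over all genes the block called 91, 501 and 2075 genes in the 3 comparisons, against 1588, 2665 and 4460, and limma-voom 3805, 5123 and 6912. The numbers are not shown to pair the libraries. Deviations of same-numbered libraries from their group means correlated at -0.0438 to 0.0186, and 0, 2 and 0 of 6 libraries correlated best with their own number in the 3 comparisons. With single libraries left out, the counts were 0 to 1 lower upon IGF2BP1 depletion, 2 to 3 higher upon SRF depletion and 3 to 5 lower in siIGF2BP1 than in siSRF. Over all genes these fits called 436 to 738, 946 to 1796 and 2885 to 3358 genes in the 3 comparisons. Log2 differences of members that were not called changed sign in 17 cases. FOSB upon IGF2BP1 depletion was at -0.032 with a pseudocount of 0.01, -0.070 with limma-voom and between -0.22 and 0.30 with single libraries left out. JUNB in the same comparison was at 0.017 with GC and length trends removed. Upon SRF depletion FOSL1 was at -0.019 with median-ratio rescaling and -0.0078 with the length trend removed. With single libraries left out, FOSL1 ranged from -0.024 to 0.049, FOS from -0.060 (without siC replicate 3) to 0.66, EGR1 from -0.063 (without siSRF replicate 1) to 0.16 and IER2 from -0.0013 (without siSRF replicate 3) to 0.15. EGR2 in siIGF2BP1 against siSRF ranged from -0.84 to 0.060 (without siIGF2BP1 replicate 3). The causes were not tested. Of the other values of single members, 393 kept direction and side of the threshold, 14 passed it and 31 lost it. Few reads limit FOS, FOSB, EGR1, EGR2 and EGR3.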
